A study of Sus scrofa with 4 samples.

Results

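Porcine intramuscular adipocytes (pMA) stimulated with serotonin for 12 h were compared with unstimulated pMA on 2 of the 4 oligonucleotide arrays of the series, which were chosen by their sample labels. Both arrays carried 34850 gene names, of which 6688 were gene symbols, and a ratio between the arrays was obtained for 19093 names. The question of the comparison was which transcripts differ in adipocytes that have been exposed to exogenous serotonin. The cells came from 1 line of porcine intramuscular preadipocytes (PIP), derived from the longissimus muscle of the Duroc breed and used at passages 26 to 35, so the arrays describe 1 line and not a set of animals. Cells of both groups were grown to confluence, kept for 4 days after it, and then fed for 4 days with medium containing 10% serum, 50 ng/ml insulin, 0.25 µM dexamethasone, 2 mM octanoate and 200 µM oleate. The serotonin group then received 100 µM serotonin, a dose that the labels write per ml, while the unstimulated group received none. The remaining arrays held PIP cells without differentiation medium, and pMA given 2.5 µg/ml TNF-α for 12 h. Their levels are shown beside those of the pair as values, since the TNF-α and serotonin arrays are read against the same unstimulated array. RNA of each group was pooled before 200 ng was labelled, so that 1 array stands for 1 pool. Differences between the arrays therefore could not be checked against the spread between cultures, and no test was made.

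Serotonin (5-hydroxytryptamine) is made from tryptophan and acts on cells through a family of G protein-coupled receptors and 1 ligand-gated channel, the 5-HT3 receptor. It is taken up by transporters and broken down by monoamine oxidases. Most serotonin in the body is made outside the brain, and adipocytes are among the peripheral cells that carry its receptors. Several of the gene families measured here answer to chemical exposure. The aryl hydrocarbon receptor is a ligand-activated transcription factor whose best known target is the cytochrome P450 gene CYP1A1, and NRF2 is a transcription factor that drives glutathione synthesis and the reduction of quinones and carbonyls. Serum response factor and its cofactors drive the actin and calponin genes of contractile cells.

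The largest difference on the arrays was in CYP1A1, and the aldo-keto reductase genes of the AKR1C branch were among the others. Because family members share long stretches of sequence, the probes that carry these ratios are shown. They were read from the deposited array files, where each probe is a 60-base DNA oligonucleotide given 5′ to 3′ and placed by its start on a RefSeq record. In AKR1C1 at base 690 and AKR1C2-like, a capital marks the base that differs in the stretch of 35 bases where these probes overlap. In AKR1C1 at base 478 and AKR1CL1, capitals mark the 24 bases that differ when the probes are aligned end to end, and the other lines have no capitals.
CYP1A1 at base 1046: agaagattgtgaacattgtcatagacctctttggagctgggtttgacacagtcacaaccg
AKR1C1 at base 385: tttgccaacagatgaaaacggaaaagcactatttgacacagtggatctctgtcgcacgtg
AKR1C1 at base 690: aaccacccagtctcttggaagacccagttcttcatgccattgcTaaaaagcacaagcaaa
AKR1C2-like at base 849: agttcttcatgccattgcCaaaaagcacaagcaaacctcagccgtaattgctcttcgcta
AKR1C1 at base 478: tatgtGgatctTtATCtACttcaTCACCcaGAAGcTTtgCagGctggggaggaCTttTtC
AKR1CL1 at base 577: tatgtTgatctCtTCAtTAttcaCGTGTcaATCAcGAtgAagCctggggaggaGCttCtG
The AKR1C2-like probe at base 849 and the AKR1C1 probe at base 690 match at 34 of their 35 shared bases, so signal at the pair cannot be assigned to 1 of these genes. The AKR1C1 probe at base 478 belongs to a different RefSeq record of that name and matches the AKR1CL1 probe at 36 of 60 bases.

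Levels are log2 intensities after subtraction of the 75th percentile of the array, and differences are log2 ratios of serotonin over unstimulated pMA. A gene is described as having risen or fallen where this difference reached 2-fold, the fold cutoff of the methods. If a probe was dim, that is not well above background by the scanner's own mark, on 1 array of the pair, the fold is a lower bound. A dim value under the faintest signal above that mark, -5.12 on the serotonin array and -4.64 on the unstimulated array, was replaced by that signal. Dim values above it were kept as measured. A total of 1303 gene names differed at least 2-fold, 6.82% of those with a ratio. Of these, 398 were higher after serotonin (2.08%) and 905 were lower (4.74%), so that 30.5% of the genes past the rule rose, and 2.27 genes fell for each that rose. Scaling to the spike-in controls gave 574 higher and 696 lower, with 45.2% higher, and moved the median log2 ratio of all names from 0.01 to 0.11. Lower bounds stood behind 85 of the rises and 197 of the falls. At 4-fold there were 57 rises and 130 falls, and at 8-fold 18 and 24. Among 5308 gene symbols with a ratio, 384 (7.23%) differed at least 2-fold, 131 of them higher (2.47%) and 253 lower (4.77%).

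**Figure D1:**
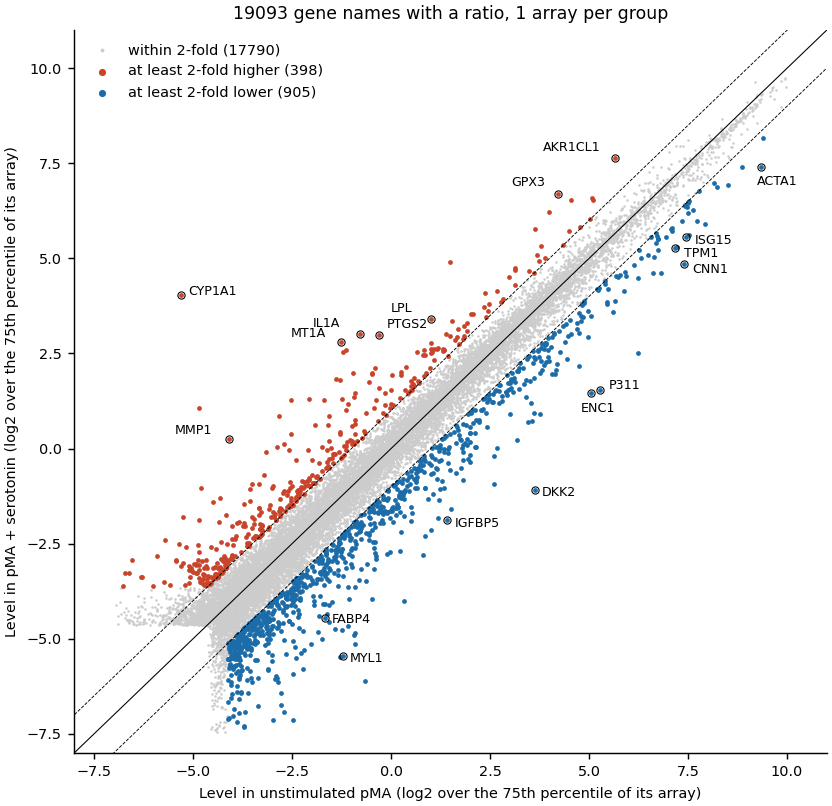
Each point is 1 of 19093 gene names, with its level on the unstimulated array on the x axis and on the serotonin array on the y axis, both in log2 units over the 75th percentile of the array. Dashed lines mark 2-fold, red and blue points are the 398 names higher and the 905 lower after serotonin, levels not well above background are plotted as measured, and CYP1A1 and DKK2 lie far from the diagonal on opposite sides.

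The files hold errors within an array but none between cultures. Probes repeated on 5 spots had a median SD of 0.08 on the unstimulated array and 0.10 on the serotonin array. In 3001 genes with several measured probes the median SD of the log2 ratio between probes of a gene was 0.10. Of 228 genes past 2-fold that had further probes with a ratio, 210 (92.1%) had all of them in the same direction. The share of probes well above background was 60.9% after serotonin and 56.5% without it. ACTB, a common reference gene, differed by -0.30, with 4 probes from -1.71 to -0.29. Background correction by normexp, which draws faint signals together, left 578 names past 2-fold and gave log2 ratios of 6.43 for CYP1A1, 2.53 for MMP1 and -1.45 for FABP4.

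The label adipocyte was compared with its defining markers. Of 12 adipocyte markers on the array, 9 were well above background in unstimulated pMA and 9 after serotonin. Their summed linear level was 10.3 and 24.7, against 6.49 in PIP cells, where 9 were also well above background. Most of the higher sum after serotonin lay in LPL and CD36. The members that reached 2-fold were LPL (log2 ratio 2.41) and CD36 (1.47), which rose, and FABP4 (-2.77), which fell. The other 6 with a ratio lay below 2-fold, and the median was 0.27. ADIPOQ (adiponectin), CEBPA and PLIN1 (the coat protein of large lipid droplets) were dim on both arrays of the pair. In PIP cells ADIPOQ was well above background, at -4.53. PPARG, the main adipogenic nuclear receptor, had a level of -3.21 in unstimulated pMA and -3.30 after serotonin, and LEP (leptin) had -2.61 and -2.45. Of 11 fibroblast markers, 10 and 9 were well above background, with summed levels of 962 and 658, of which VIM made up 49.4% and 56.9%. Skeletal muscle markers summed to 662 and 178, with 10 of 15 well above background on each array and the defining factors MYOD1, MYF5 and MYF6 dim on both. ACTA1 alone made up 97.5% and 94.6% of these sums, and without it, a step chosen after the values were seen, they were 16.4 and 9.52. Endothelial markers summed to 19.9 and 22.2, with 6 and 4 of 9 well above background and CDH5, CLDN5 and TEK dim on both arrays. Their sum rested on FLT1 (0.29) and ENG (0.13), whereas the other 4 with a ratio were below 0 and the median was -0.77. Leukocyte markers summed to 2.27 and 2.13, with 3 and 4 of 9 well above background and CD163 and CD4 dim on both. CD14 made up 81.9% and 86.4% of the leukocyte sums. In bulk RNA, fewer cells of a type and less of its RNA per cell cannot be told apart.

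CYP1A1, the monooxygenase that oxidizes polycyclic aromatic compounds, was dim in unstimulated cells (level -5.31) and after TNF-α (-5.11), and had a level of -2.17 in PIP cells and 4.03 after serotonin. It was at least 407-fold higher in serotonin-stimulated than in unstimulated pMA. The probe at base 1046, printed above, was dim at -6.38 without serotonin and reached 2.49 with it, a difference of at least 139-fold, so both probes of the gene showed the difference. Its sister enzyme CYP1B1, named here from the description of its probe after its value was seen, had levels of -0.28 in PIP cells, 1.48 in unstimulated pMA, 4.89 after serotonin and 0.86 after TNF-α. This was 10.6-fold higher in the pair. The serotonin array was the highest of the 4 for both enzymes.

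The list of aryl hydrocarbon receptor targets and partners had 8 members with a ratio, of which 4 rose (50%, against 2.08% of all names) and none fell. UGT1A6, which couples glucuronic acid to phenols, went from -2.83 to 0.85, with -1.52 in PIP cells and -0.91 after TNF-α, and was 12.8-fold higher by its 1 probe, which may also read other UGT1A forms with shared exons. TIPARP, a mono-ADP-ribosyltransferase that feeds back on the receptor, had levels of -0.87 in PIP cells, -1.29 in unstimulated pMA, 1.80 after serotonin and -1.30 after TNF-α, and was 8.47-fold higher. NQO1, a quinone reductase that belongs to both this list and the NRF2 list, went from -0.41 to 2.13, a 5.80-fold difference. CYP1A2, at -3.40 and -3.34, and the dimer partner ARNT, at 1.06 and 1.10, differed by less than the SD between probes. The median of the list was 1.30, but it lies between members near 0.05 and members above 2.5, and it was 0.05 over members measured on both arrays, which leaves out CYP1A1.

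Among aldo-keto reductases, which reduce carbonyls and steroids, the AKR1C branch and AKR1E2 rose, whereas AKR1A1 and AKR1B1 did not reach 2-fold. AKR1C1 had levels of -2.03 in PIP cells, -1.15 in unstimulated pMA, 2.58 after serotonin and -0.82 after TNF-α at its brightest probe, a 13.3-fold difference. The probe at base 690 went from -4.27 to 1.15, or 43.0-fold, and the probe at base 385 was dim without serotonin and at least 27.4-fold higher with it. The 3 probes of the second record named AKR1C1, among them the one at base 478, were dim on both arrays of the pair. AKR1C2-like, which shares 34 bases with the base 690 probe, was at least 52.2-fold higher at base 849, whereas its probe at base 998 was dim without serotonin and, at -4.67 with it, too faint for a fold. AKR1CL1 went from 5.66 to 7.65, a 3.97-fold difference with 3 probes between 1.99 and 2.13. The probe listed as AKR1C4, whose accession now belongs to AKR1CL1, gave 4.38-fold, so these names may not be separate genes. AKR1E2 went from 1.53 to 3.36, while AKR1B1 differed by 0.24 and AKR1A1 by -0.01.

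**Figure D2:**
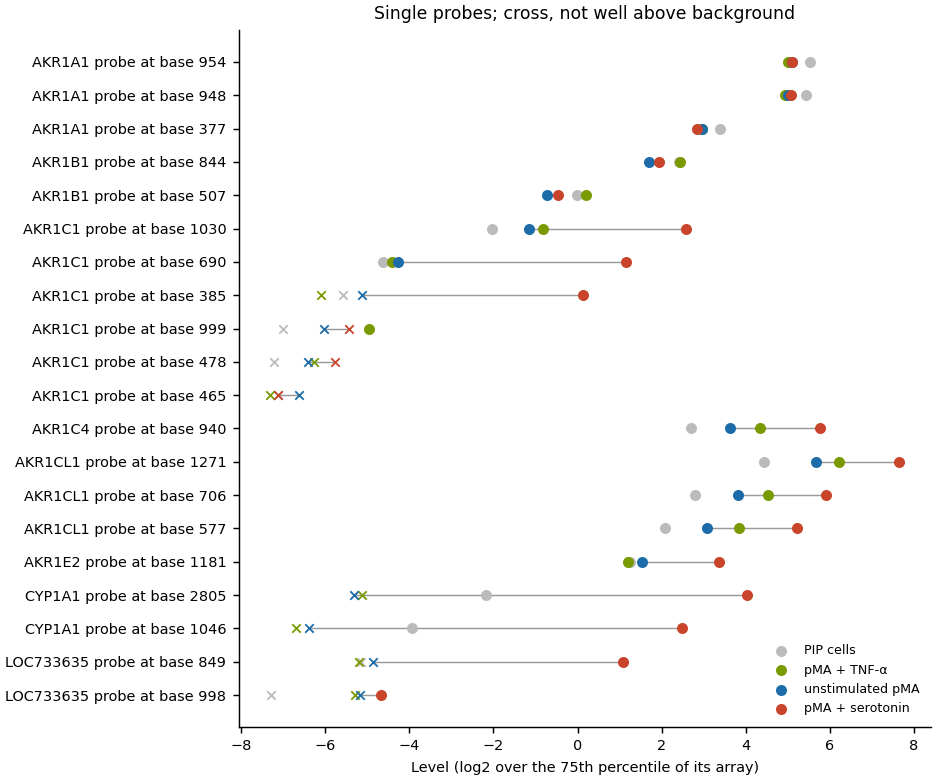
Levels of single probes of the aldo-keto reductase genes and of CYP1A1 on the 4 arrays, in log2 units over the 75th percentile of the array, with a cross where the probe was not well above background and a line joining unstimulated pMA to serotonin-stimulated pMA. Positions are counted in bases from the start of each probe's transcript record, and levels are comparable along a row but not between rows. The AKR1C1 probes at bases 385, 690 and 1030 and both CYP1A1 probes are far to the right in the serotonin group, and the AKR1A1 points nearly coincide.

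A larger number of glutathione and NRF2 genes rose. Of 31 members with a ratio, 8 rose (25.8%, against 2.08% of all names), none fell, and 24 were above 0, with a median of 0.45 against 0.01 for all names. Both subunits of glutamate-cysteine ligase, the first enzyme of glutathione synthesis, rose: the catalytic subunit GCLC from -2.59 to -0.04 (5.85-fold) and the modifier GCLM from -0.64 to 0.92 (2.95-fold). GSR, which regenerates glutathione, went from 2.76 to 3.85, a 2.13-fold difference. TXNRD1, the cytosolic thioredoxin reductase, had levels of 5.38 in PIP cells, 5.07 in unstimulated pMA, 6.59 after serotonin and 4.94 after TNF-α, and was 2.89-fold higher with 6 of 6 probes in that direction. GPX3, the secreted glutathione peroxidase, went from 4.22 to 6.71, a 5.61-fold difference over 4 probes that ranged from 2.30 to 2.54, while the level was 2.97 in PIP cells and 3.33 after TNF-α. The cystine importer SLC7A11 (0.97), the pentose phosphate enzyme PGD (0.98), HMOX1 (0.81) and NFE2L2, which encodes NRF2 itself (0.63), lay below 2-fold. GPX2 (-0.94) and GPX1 (-0.68) were on the other side of 0.

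Superoxide and peroxide enzymes and metal-binding proteins gave 1 and 2 rises (12.5% and 18.2%, against 2.08% of all names). SOD2, the mitochondrial superoxide dismutase, had levels of 2.46 in PIP cells, 2.98 in unstimulated pMA, 4.51 after serotonin and 6.66 after TNF-α, and was 2.89-fold higher with serotonin over 7 probes between 1.51 and 1.64. All 8 members of its list with a ratio were above 0, with a median of 0.22. MT1A, a metallothionein that binds zinc and copper, had -0.76 in PIP cells, -1.26 in unstimulated pMA, 2.80 after serotonin and 2.53 after TNF-α. It was 16.7-fold higher, and its probes may read other metallothioneins of near-identical sequence. The transferrin receptor TFRC had a dim probe without serotonin and at least 2.41-fold more signal with it, and FTL and FTH1, the ferritin chains, differed by 0.44 and -0.04.

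**Figure D3:**
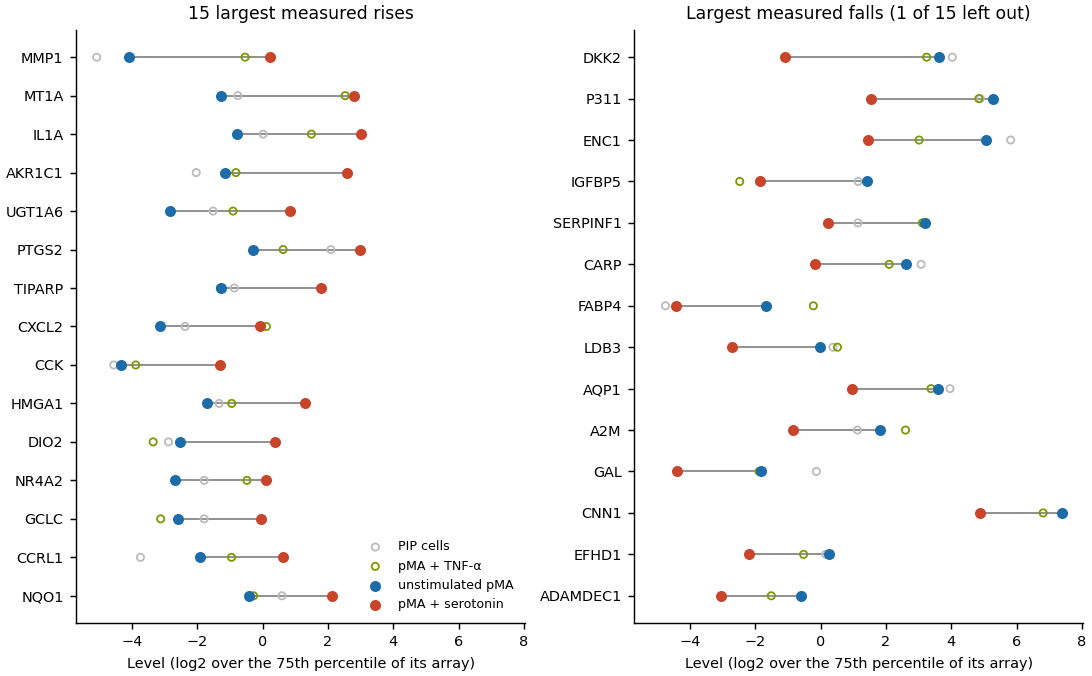
Levels of the 15 gene symbols with the largest measured rises (left) and the largest measured falls (right, 1 of 15 left out), in log2 units over the 75th percentile of the array. Filled points are the pair compared, joined by a line, and open points are PIP cells and TNF-α-stimulated pMA. DKK2 falls from 3.63 to -1.10, and IGFBP5 is low after TNF-α as well.

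Inflammatory mediators moved in both directions. Of 22 cytokines and chemokines with a ratio, 4 rose and 4 fell (18.2% each, against 2.08% higher and 4.74% lower of all names), and their median was 0.07. IL1A, the alarmin form of interleukin 1, had levels of 0.01 in PIP cells, -0.79 in unstimulated pMA, 3.0 after serotonin and 1.49 after TNF-α, a 13.8-fold difference in the pair with both probes at 3.73 or above. CXCL2, a neutrophil chemokine, went from -3.16 to -0.09 (8.35-fold) and had 0.11 after TNF-α. CCL20 (3.46-fold) and CXCL14 (2.42-fold) also rose, CCL20 short of 2-fold after normexp. The members that fell were TNFSF10, the death ligand TRAIL (5.15-fold, from 1.33 to -1.03), CCL5 (2.05-fold), CXCL10 (2.21-fold) and CCL4 (at least 2.64-fold), of which CCL5 fell short of 2-fold under spike-in scaling and CCL5, CXCL10 and CCL4 after normexp. CXCL10 and TNFSF10 are also known as targets of interferons. IL6, CCL2 and TNF differed by -0.44, -0.19 and 0.15, all below 2-fold, while TNF-α-stimulated pMA had 2.43, 8.70 and 0.16 for them and unstimulated pMA had 0.80, 7.21 and 0.11. In the NF-κB list the inhibitors TNFAIP3, from -3.71 to -1.45 (4.78-fold), and NFKBIA, from 4.56 to 6.52 (3.91-fold), rose. NFKB2 was listed with a fall of 2.71-fold, but its second probe gave 0.25. Rises and falls were 20% and 10% of the 10 members with a ratio, against 2.08% and 4.74% of all names.

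Rises among the enzymes that make prostaglandins were at the release of arachidonic acid and at the cyclooxygenases. PLA2G4A, the cytosolic phospholipase that releases arachidonic acid, went from 2.02 to 3.55, a 2.88-fold difference. PTGS1 and PTGS2, the cyclooxygenases, went from -0.37 to 1.27 and from -0.30 to 2.99. PTGS2 was 9.79-fold higher over 2 probes at 3.24 and 3.29, and its level was 2.09 in PIP cells and 0.63 after TNF-α. PTGR1, which inactivates prostaglandins and reduces reactive alkenals, was 3.07-fold higher and also belongs to the NRF2 list. PTGIS, the prostacyclin synthase, was 2.41-fold lower. The synthases PTGES (0.82), PTGES3 (0.53), PTGES2 (0.11) and PTGDS (-0.71) lay below 2-fold. Over the 19 list entries with a ratio, 4 rose (21.1%, against 2.08% of all names) and 1 fell (5.26%, against 4.74%). Of these 19, 15 were above 0, with a median of 0.24. The entries ALOX12 and ALOX15 were the same array name (0.03), so the entries exceed the separate genes. Without the repeat the median lies between AKR1B1 (0.24) and PTGES3 (0.53).

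Falls were frequent among interferon-stimulated genes. Of 41 members with a ratio 13 fell (31.7%, against 4.74% of all names), none rose, 39 were below 0 and the median was -0.68. RSAD2 (viperin) had levels of 4.29 in PIP cells, 2.00 in unstimulated pMA, -0.36 after serotonin and 2.23 after TNF-α, a 5.14-fold fall. GBP1 (4.34-fold), DDX58, the RNA sensor RIG-I (3.69-fold), ISG15 (3.68-fold), OAS1 (3.63-fold) and USP18 (3.40-fold) were also lower. The ubiquitin-like modifier ISG15 went from 7.44 to 5.56, with 8.72 in PIP cells and 7.46 after TNF-α, and IFIT1, IFIT2 and IFIT3 fell 3.13-fold, 3.21-fold and 2.52-fold. In all of these genes the serotonin array was the lowest of the 4. Transcription factors of the pathway differed less, with IRF7 at -0.71, IRF1 at -0.51, STAT2 at -0.35 and IRF3 at 0.17. MX1, with 5 probes from -1.06 to -0.83, was just inside the rule.

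The contractile cytoskeleton was the list with the lowest median of the 43, except after quantile normalization. Of 18 smooth-muscle-type genes with a ratio 8 fell (44.4%, against 4.74% of all names), none rose, 17 were below 0, and the median was -0.88. CNN1 (calponin), an actin-binding protein of smooth muscle, had levels of 7.41 in PIP cells, 7.39 in unstimulated pMA, 4.87 after serotonin and 6.81 after TNF-α, a 5.74-fold fall. TPM1, a tropomyosin, was 3.76-fold lower with all 21 probes between -2.28 and -1.57, and SMTN (3.46-fold), MYL9 (2.75-fold) and TPM2 (2.53-fold) were lower as well. ACTN1, ACTN4 and DES lay between 2.01-fold and 2.05-fold, and below 2-fold when arrays were scaled to the spike-in controls. ACTA2 was at -0.88, with 7 probes from -2.78 to -0.38, and SRF at -0.38. Also below 0 but short of 2-fold were VCL (-0.87), FLNA (-0.84) and MYL6 (-0.81), and the member above 0 was CNN3, at 0.06.

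Of 10 skeletal muscle markers with a ratio 3 fell (30%, against 4.74% of all names), none rose, and the median was -0.65, with MYOG at -0.01 and PAX7 at 0.39. ACTA1, the skeletal actin, went from 9.33 to 7.40, a 3.83-fold fall with 11 probes from -2.63 to -0.26, some of which may read ACTA2. Outside the marker list, MYL1, the fast myosin light chain, had levels of 0.47 in PIP cells, -1.23 in unstimulated pMA and -2.30 after TNF-α, was dim after serotonin at -5.46, and was at least 14.9-fold lower. LDB3 (6.52-fold), a Z-disc protein, and the ankyrin repeat protein CARP, now named ANKRD1 (6.90-fold, 4 probes from -2.79 to -0.67), were among the largest falls. Within it, PAX3 was 2.39-fold lower and DES 2.03-fold. The part of muscle-type cells in these falls was not tested.

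Structural matrix genes were lower after serotonin in 27 of 30 members with a ratio, 10 of them past 2-fold (33.3%, against 4.74% of all names), with none that rose and a median of -0.79. COL11A1, a fibril-forming collagen, had levels of 6.08 in PIP cells, 7.22 in unstimulated pMA, 5.30 after serotonin and 6.25 after TNF-α, a 3.79-fold fall. COL14A1 (3.16-fold), COL1A1 (2.66-fold), COL15A1 (2.65-fold, 8 of 8 probes), TNC (2.56-fold), LOXL1, a collagen crosslinker (2.33-fold), DCN (2.24-fold), COL8A1 (2.20-fold), SPARC (2.06-fold) and COL5A1 (2.03-fold) also fell, the last 2 not past 2-fold under spike-in scaling and COL8A1 not after quantile normalization. The elastic fibre protein FBLN5, at 0.91, was the highest member. The fibroblast markers share COL1A1, COL1A2, DCN and LUM with this list, and the sum of the other 7, set apart after the values were seen, was 535 without and 426 with serotonin. The part of fibroblast content in the matrix result was not tested.

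Matrix proteases were mixed, with 2 rises (6.9%, against 2.08% of all names) and 3 falls (10.3%, against 4.74%) among 29 members and a median of 0.09. MMP1, the interstitial collagenase, showed the largest measured rise of all gene symbols. Its level was -5.08 in PIP cells, -4.10 in unstimulated pMA, 0.24 after serotonin and -0.54 after TNF-α, a 20.2-fold difference by its 1 probe. The aggrecanase ADAMTS4 rose 2.81-fold, and ADAMTS5, named from its probe's description after its value was seen, rose 5.80-fold. Among the members that fell were the serpins SERPINF1, or pigment epithelium-derived factor (7.76-fold, from 3.18 to 0.23), and SERPING1, the complement inhibitor of C1 (2.07-fold, short of 2-fold under spike-in scaling). A2M, a broad protease inhibitor of another list, went from 1.82 to -0.84, a 6.31-fold fall.

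**Figure D4:**
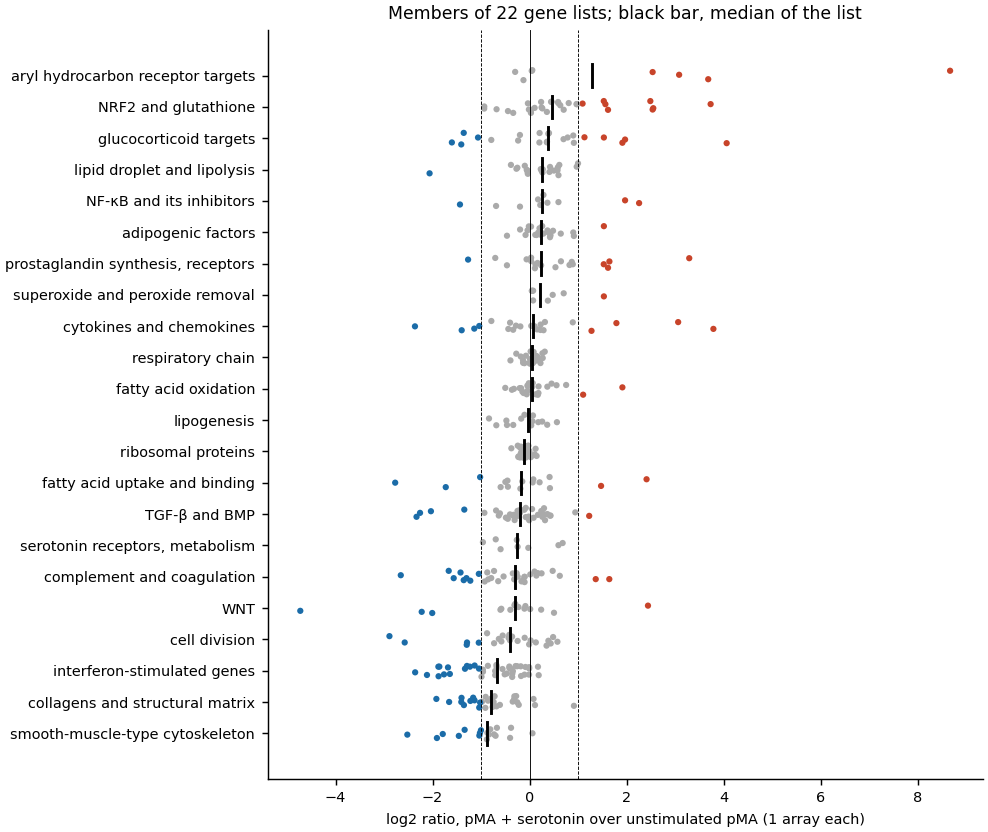
Log2 ratios of serotonin-stimulated over unstimulated pMA for the members of 22 gene lists, with dashed lines at 2-fold, coloured points past 2-fold and a black bar at the median of each list. The medians run from 1.30 for aryl hydrocarbon receptor targets to -0.88 for the smooth-muscle-type cytoskeleton, and ribosomal proteins and the respiratory chain cluster near 0.

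In the lists of WNT, TGF-β and BMP, and IGF and insulin genes, 3, 4 and 2 members fell and 1, 1 and none rose, of 15, 37 and 24 with a ratio. The falls were 20%, 10.8% and 8.33% of these lists, against 4.74% of all names. The rises were 6.67% of the WNT list and 2.7% of the TGF-β and BMP list, against 2.08% of all names. DKK2, a secreted WNT antagonist, had levels of 4.03 in PIP cells, 3.63 in unstimulated pMA, -1.10 after serotonin and 3.24 after TNF-α. The 26.5-fold fall, measured by 1 probe, was the largest among gene symbols. FRZB (4.68-fold, 7 of 7 probes) and SFRP4 (4.02-fold), which bind WNT ligands, fell too, whereas the ligand WNT5A went from -1.57 to 0.87, a 5.43-fold rise. The WNT list had a median of -0.30. In the TGF-β and BMP list, TGFB3 (4.10-fold, from 4.97 to 2.94), FST (4.79-fold), the activin antagonist, and TGFB2 (2.54-fold) fell, and GDF15 rose 2.34-fold. INHBA, an activin subunit, gave a 5.04-fold fall by 1 probe and 0.65 by the other, so its direction is not settled. IGFBP5, an IGF-binding protein, went from 1.42 to -1.87 (9.79-fold) and had -2.48 after TNF-α, and IGF1 fell 3.96-fold, from 0.05 to -1.93. Receptors and kinases of these pathways, such as TGFBR1 (0.42), SMAD3 (0.30), IGF1R (-0.28), INSR (0.54) and AKT1 (-0.07), lay below 2-fold.

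Of 16 genes of fatty acid uptake and binding with a ratio 2 rose (12.5%, against 2.08% of all names) and 3 fell (18.8%, against 4.74%). The median was -0.17. LPL, the lipase that hydrolyzes lipoprotein triglyceride, had levels of 0.63 in PIP cells, 1.00 in unstimulated pMA, 3.41 after serotonin and 2.28 after TNF-α, a 5.32-fold rise over 5 probes from 2.41 to 2.74. CD36, the fatty acid translocase, went from 1.18 to 2.65 (2.78-fold). The cytosolic binding protein FABP4, an adipocyte marker, was dim at -4.76 in PIP cells and had levels of -1.67 in unstimulated pMA, -4.44 after serotonin and -0.23 after TNF-α. It fell 6.83-fold over 4 probes from -3.13 to -2.21. FABP5 went from 5.87 to 4.14 (3.32-fold lower) and VLDLR from 4.83 to 3.81 (2.03-fold lower, short of 2-fold under spike-in scaling), whereas FABP3 differed by 0.08. The marker list thus held 2 rises and 1 fall.

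PDK4, the kinase that shuts pyruvate out of oxidation, had -7.08 in PIP cells, -0.32 in unstimulated pMA, 1.59 after serotonin and -1.81 after TNF-α, a 3.76-fold rise with 9 of 9 probes from 0.93 to 2.20. ACAA1, a peroxisomal thiolase, rose 2.15-fold. These rises were 8.7% of the fatty acid oxidation list, against 2.08% of all names. Its other 21 members lay below 2-fold, and the median of the 23 was 0.05. CPT1A, the carnitine transferase of mitochondrial uptake, differed by -0.04, with 6 probes from -0.04 to 0.48. None of 14 lipogenesis genes or 15 cholesterol synthesis genes reached 2-fold, with medians of -0.04 and -0.13, among them FASN (-0.11), ACACA (0.56), SCD (-0.48) and ACLY (-0.84). Of all names 6.82% reached 2-fold, so an absence in lists this small carries little information. Of 22 lipid droplet and lipolysis genes with a ratio 1 fell, CIDEA (4.18-fold, from -1.94 to -4.01), and PLIN2, the droplet coat protein of early adipocytes, was on the limit at 1.00. The 1 fall was 4.55% of this list, near the 4.74% of all names. Adipogenic transcription factors had a median of 0.24, with 1 of 23 past 2-fold (4.35% higher, against 2.08% of all names). KLF15 rose 2.89-fold, from 1.08 to 2.62, and KLF9 (0.91) and CEBPD (0.90) came next.

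**Figure D5:**
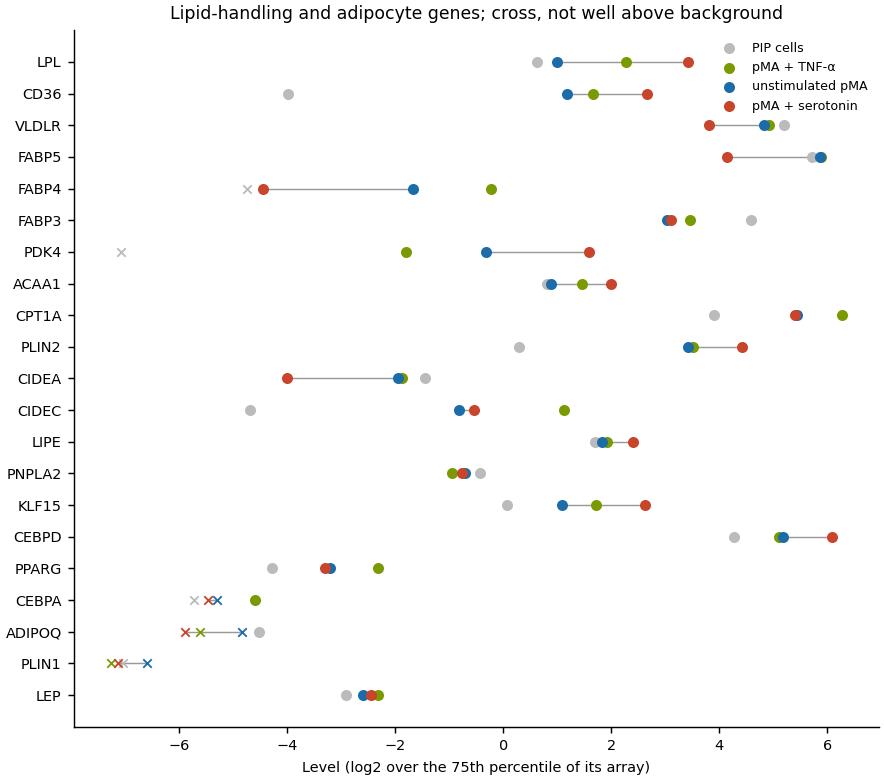
Levels of lipid-handling and adipocyte genes on the 4 arrays, in log2 units over the 75th percentile of the array, with a cross where the probe was not well above background and a line joining unstimulated to serotonin-stimulated pMA. LPL and CD36 lie to the right and FABP4 and FABP5 to the left in the serotonin group, while CPT1A and PPARG hardly differ and ADIPOQ, CEBPA and PLIN1 are crosses on both arrays of the pair.

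KLF15 and PDK4 are also known glucocorticoid targets, and dexamethasone was in the medium of both groups. Of 22 glucocorticoid targets with a ratio 5 rose (22.7%, against 2.08% of all names) and 4 fell (18.2%, against 4.74%), and the median was 0.37. Besides MT1A, NFKBIA, PDK4 and KLF15, SAA3 rose (2.19-fold), and RGS2 (3.04-fold), PER2 (2.66-fold) and LCN2 (2.09-fold, short of 2-fold under spike-in scaling) were among those that fell. The classical targets FKBP5 (0.78), SGK1 (0.70), TSC22D3 (0.36) and PER1 (0.20) lay below 2-fold.

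Genes of serotonin signaling did not reach 2-fold in either direction. Of 18 on the array 8 had a ratio, and their median was -0.26. As 6.82% of all names reached 2-fold, an absence among 8 genes carries little information. HTR3A, a subunit of the 5-HT3 channel, had levels of 5.68 in PIP cells, 7.21 in unstimulated pMA, 6.96 after serotonin and 6.91 after TNF-α. HTR2A, a receptor coupled to phospholipase C, went from 1.05 to 1.73, and HTR1B, an inhibitory receptor, from -1.97 to -2.94. MAOA, which degrades serotonin, went from 3.69 to 3.09 with 3 probes from -0.69 to -0.60. HTR1D, HTR1F, HTR2B, HTR2C, HTR4 and HTR7 were dim on both arrays. Downstream of G protein-coupled receptors, RGS4 (3.68-fold) and NR4A2, an orphan nuclear receptor induced by cyclic AMP (7.01-fold, from -2.70 to 0.11), rose, RGS5 was dim without serotonin and at least 3.27-fold higher, and RGS2 fell. The 19 regulators of this kind with a ratio had a median of 0.13. Of them 15.8% rose and 5.26% fell, against 2.08% and 4.74% of all names. Immediate early genes gave 4 rises, namely NR4A2, IER3 (3.41-fold), MYC (2.36-fold) and DUSP6 (2.25-fold), and 2 falls, FOS (2.52-fold) and EGR3 (2.61-fold). These were 25% and 12.5% of 16 genes with a ratio, against 2.08% and 4.74% of all names.

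Among the remaining large rises were CCK, a peptide hormone (8.17-fold, from -4.33 to -1.30), HMGA1, a chromatin protein (7.96-fold over 3 probes from 1.74 to 2.99), DIO2, the deiodinase that activates thyroid hormone (7.52-fold, from -2.52 to 0.39), and CCRL1, the decoy chemokine receptor now named ACKR4 (5.84-fold). SCG5, a neuroendocrine chaperone (at least 7.10-fold), and KCNN3, a calcium-activated potassium channel (at least 6.70-fold), were dim without serotonin. The bounds that followed were smaller, from at least 3.93-fold for ARHGAP25 through ARHGEF3 (3.18) and HIST1H3E (3.05) to at least 3.0-fold for PSD. Large falls without a list were in P311, a small intracellular protein (13.4-fold, 6 of 6 probes from -3.97 to -3.73), ENC1, an actin-binding kelch protein (12.2-fold), AQP1, a water channel (6.33-fold), GAL, the neuropeptide galanin (5.98-fold), EFHD1 (5.50-fold) and ADAMDEC1 (5.43-fold). EDN1, the vasoconstrictor endothelin 1, was dim after serotonin and at least 7.39-fold lower. NANOS1 (6.47), KCNE1 (6.23), PBK (5.96), ANGPT4 (4.84), TIAM1 (4.07) and GXYLT2 (3.90) were lower by at least the fold in parentheses, although the second probe of KCNE1 gave -0.46. Names without a symbol, chosen after their values were seen, included TMEM158 (13.2-fold lower, from 6.24 to 2.52), the fructose transporter SLC2A5 (11.8-fold lower), complement factor D (6.02-fold and 5.70-fold higher by separate names), the bradykinin type 2 receptor (5.37-fold higher) and TLR4 (3.93-fold higher).

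Lists of basic cell functions gave few differences. None of 45 ribosomal protein genes and none of 28 respiratory chain genes reached 2-fold, with medians of -0.11 and 0.06, and of 12 reference genes 1 did, TFRC. Among all names the share past 2-fold was 6.82%. Ribosomal proteins lay below 0 in 38 of 45 genes, but their median was 0.08 after quantile normalization, so that this small difference depends on the scaling.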

How the data were processed

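The authors hybridized Cy3-labelled cRNA to 4 porcine Agilent arrays, which may share a slide, and read them with Agilent Feature Extraction 10.7.3.1. The deposited scanner files hold processed signal intensities, which were used here. The deposited value table held the same intensities as a linear ratio to a constant of each array, 455 for unstimulated and 540 for serotonin-stimulated pMA, near the 75th percentile of all its spots. The methods also describe a mouse array and a two-color design, which the files do not bear out.

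Control spots and outlier spots (1 and 3 on the pair) were left out, log2 intensities were reduced by the 75th percentile of the array (479 and 566 before the log), spots of a probe were averaged, and each name was represented by the brightest of its probes, by the mean of the 4 arrays. Of 34850 names, 14875 were dim on both arrays, 882 had a lower bound under 1, 17367 were measured on both and 1726 had a lower bound. With 1 array per group there was no test, and the number of arrays limits the precision. The genes named are the 15 largest measured rises and falls and the 8 largest lower bounds in each direction among symbols, and members of 43 gene lists (1032 of 1495 entries matched the array), apart from a few that are not reported here. The members and lists were chosen with earlier results of these data known. The ratios of probes measured on both arrays were checked on simulated data with known changes. Those changes were placed only in genes with brighter probes, so changes at faint measured probes were not checked. The lower bounds were not part of that check. Alternatives used Python 3.11.15, R 4.3.3 and limma 3.58.1 (normexp with offset 50). The sequences are probe sequences of the deposited files.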

Additional observations from a re-analysis of the deposited data

How the results depend on the processing

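No paired analysis was possible because each group has 1 array, and no replicate could be left out. The number of genes past 2-fold was between 1270 and 1320 under quantile, median and spike-in scaling, the median over probes, the brightest probe over the pair, outlier spots kept and the deposited value table, and 1021 over probes measured on both arrays. It was 578 after normexp background correction (157 higher and 421 lower), 3901 with no filter on dim probes and 187 at 4-fold. The share that rose was 45.2% with spike-in scaling. No gene past 2-fold under both the reported setting and any of these alternatives changed direction. Of 167 named genes, INHBA reversed, to 0.65 with the brightest probe over the pair, and 129 stayed past 2-fold after normexp, which draws dim probes toward 0: MMP1 had 2.53, CCK 1.81, FABP4 -1.45, MYL1 -1.89, SCG5 1.22 and CYP1A1 6.43. Of the named genes 38 fell short of 2-fold after normexp, among them CFB, THBD, CCL20, CCL4, CCL5, CXCL10, ADAMTS4, PTGIS, EGR3, ENO2, RGS5, TFRC, SELP, ITGA2, ITGB2, KIF4A, PBK, TOP2A, TIAM1, WISP2 and TP53INP1. Scaling to the spike-in controls left 15 short of it, among them AGTR1, CCL5, CCNB1, CRYAB, ITGA1, LCN2, P4HA1, SERPING1 and VLDLR, quantile normalization 8, among them ITGB1 and ISG12(A), and the median over probes 9, among them NFKB2, KCNE1, HSPB8 and ARHGAP25.

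Of 430 list medians under the alternatives, 38 were counted as moved by more than the SD between probes of a gene. Spike-in scaling is left out of the 38, although it raised every list median by 0.11 or more, beyond that SD of 0.10. The WNT median under quantile normalization (-0.18) is left out as well. Of the 430, 22 changed sign, none of them where the reported median was beyond 0.3 in size. Quantile normalization moved the medians of smooth-muscle-type (-0.73), serotonin (-0.070), NRF2 (0.62), superoxide (0.36), p53 (0.21), glycolysis (-0.053), respiratory chain (0.19) and ribosomal (0.081) genes. Normexp moved fibroblast (-0.35), skeletal muscle (-0.41), endothelial (-0.42), leukocyte (-0.18), aryl hydrocarbon receptor (1.18), metallothionein and metal (-0.060), lipid droplet (0.15), cytokine (-0.17), immediate early (0.032), WNT (-0.18), interferon (-0.52), adipokine (-0.18) and solute carrier (-0.0081) genes. With no filter on dim probes the medians of adipocyte (0.048), serotonin (-0.49), aryl hydrocarbon receptor (0.22), aldo-keto and steroid (-0.18), fatty acid uptake (-0.068), lipid droplet (-0.037), WNT (-0.17), growth factor (-0.23), interferon (-0.56) and integrin (-0.30) genes moved. Probes well above background on both arrays gave fibroblast -0.34, endothelial -0.32, aryl hydrocarbon receptor 0.055 and cytokine genes -0.079. The median over probes gave fatty acid uptake -0.048, cytokine -0.077 and immediate early genes 0.096. The cause was not tested, apart from the fewer or more genes that a filter leaves. Signal over background limits the ratios of dim probes, and 14875 names had no ratio because both arrays were dim.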

Other observations

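Among cell division genes, none was higher past 2-fold after serotonin. Of 25 with a ratio 5 fell (20%, against 4.74% of all names), and the median was -0.41. PCLAF, a factor of DNA replication, had levels of 3.66 in PIP cells, -1.06 in unstimulated pMA, -3.95 after serotonin and 0.83 after TNF-α, a 7.42-fold fall over 3 probes from -3.05 to -1.38. The kinesin KIF4A (2.46-fold) and the mitotic cyclin CCNB1 (2.07-fold) fell, and PBK and TOP2A, listed as TOPOII, were dim after serotonin and at least 5.96-fold and 2.45-fold lower. MKI67 (0.43), PCNA (0.48) and CDK1 (0.35) lay on the other side of 0. Of 31 p53 and apoptosis genes 2 rose, PMAIP1 (2.84-fold) and TP53INP1 (2.04-fold), and 2 fell, CASP4 (2.22-fold) and BCL2L11, whose probes disagree (-1.53 and 0.22). Each direction held 6.45% of these genes, against 2.08% higher and 4.74% lower of all names. CDKN1A, the cell cycle inhibitor p21, was at 0.01.

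Complement and coagulation genes gave 2 rises (5.88%, against 2.08% of all names) and 8 falls (23.5%, against 4.74%) among 34 with a ratio, and a median of -0.29. CFB, of the alternative complement pathway, rose 3.12-fold, from -4.15 to -2.51, and had 1.04 after TNF-α, but its log2 ratio was 0.63 after normexp, and THBD, the anticoagulant thrombomodulin, was at least 2.57-fold higher. F3, the tissue factor that starts coagulation, went from 5.04 to 3.48 (2.96-fold lower), and C5AR1 (3.18-fold) and F5 (2.47-fold) fell. C3 differed by 0.14. Of 28 stress response genes 4 fell (14.3%, against 4.74% of all names), namely STC2 (3.36-fold), CHAC1 (2.99-fold), PSAT1 (2.43-fold) and VLDLR. GDF15 rose (3.57%, against 2.08%), while ATF4 (-0.07) and HSPA5 (-0.31) lay below 2-fold. Of 21 heat shock genes HSPB8 rose (2.02-fold) and HSPB3 (3.40-fold) and CRYAB (2.03-fold) fell. These were 4.76% higher and 9.52% lower, against 2.08% and 4.74% of all names.

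Growth factors gave AREG, a ligand of the EGF receptor, as the 1 rise (3.20-fold, from -1.29 to 0.39), with BDNF (2.24-fold) and PDGFC (2.17-fold) lower. Of 23 growth factor genes with a ratio 4.35% rose and 8.7% fell, against 2.08% and 4.74% of all names. Among integrins, ITGB1 was 2.22-fold lower with 6 of 6 probes, from 8.15 to 6.99, and ITGA1 2.10-fold lower, whereas ITGA2 (2.21-fold) and ITGB2 (2.05-fold) rose from low levels. The adhesion gene PECAM1, also an endothelial marker, fell 2.75-fold with 4 probes from -1.46 to -0.44, and SELP fell 3.26-fold. Of 28 integrin and adhesion genes with a ratio 7.14% rose and 14.3% fell, against 2.08% and 4.74% of all names. In the amino acid and glucose transporter list only the glutamate transporter SLC1A1 passed 2-fold (3.60-fold lower, 4 of 4 probes). This was 5.26% of 19 genes with a ratio, near the 4.74% lower among all names.

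Of 21 adipokine and related genes with a ratio 1 rose (4.76%, against 2.08% of all names) and 5 fell (23.8%, against 4.74%), with a median of -0.31. The rise was in the acute phase gene SAA3 (2.19-fold, from 3.88 to 5.01, with 9.57 after TNF-α). Beside LCN2, the falls included WISP2 (2.35-fold), METRNL (2.26-fold, from 4.75 to 3.58) and the angiotensin receptor AGTR1 (2.10-fold). In the glycolysis and hypoxia list, PDK4 and ENO2 (2.53-fold) rose and P4HA1, a collagen prolyl hydroxylase, fell (2.10-fold, 7 of 8 probes), and the median of 29 genes was -0.20. These were 6.9% higher and 3.45% lower, against 2.08% and 4.74% of all names. LDHA (-0.81), PKM (-0.68) and PDK1 (-0.90) lay below 2-fold, as did the hypoxia factor HIF1A (-0.22) and its target VEGFA (0.50).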
